A study of Homo sapiens with 60 samples.

Results

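The 37 genes described here belong to the transcriptional programme of ATF4, the factor that directs the cell's response to a shortage of amino acids. They were taken from a named list of integrated stress response genes and looked up by symbol in the deposited expected-count table, which held 60675 Ensembl genes. All 37 were found, and all 37 were among the 17516 genes that passed the filter on low counts. By role they were 6 transcription factors, 6 stress effectors, 12 enzymes of amino acid and one-carbon synthesis, 4 amino acid transporters and 9 genes of the tRNA synthetases and tRNA export.

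When amino acids run short, when proteins misfold in the endoplasmic reticulum, when heme is lacking or when mitochondria are disturbed, kinases phosphorylate the initiation factor eIF2alpha. Most translation then slows, while ATF4 mRNA is translated more, so that ATF4 protein can rise with no change in its mRNA. ATF4 binds C/EBP-ATF response elements, as a partner of C/EBP proteins, and switches on genes that make, import and charge amino acids. Under lasting stress it also switches on DDIT3, known as CHOP, which drives TRIB3 and PPP1R15A. PPP1R15A encodes GADD34, which reverses the phosphorylation of eIF2alpha. In glioma cells the programme is known as a control of asparagine and serine synthesis.

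SW1783 is an established human astrocytoma cell line. The study profiled RNA from these cells after 24 h with a water extract of 1 of 6 medicinal plants or of 1 of 2 plant formulas, in order to record the transcript changes that tonifying herbal medicines bring about. Cinnamomi Cortex (Cinnamon), Astragali Radix (Astragalus), Cnidii Rhizoma (Cnidium), Rehmanniae Radix Preparata (Rehmannia) and the formula Sagunja-tang (Sagunja) had 3 libraries at each dose. The formula Samul-tang (Samul) had 2 at each dose, and Angelicae Gigantis Radix (Angelica) and Paeoniae Radix (Paeonia) had 1. Low, medium and high stand for doses of 20, 100 and 500 µg/mL. The reference was 3 libraries of vehicle, 0.1% DMSO by the sample labels, while the series text states another concentration. That made 60 libraries in 25 groups. No genetic change was made to the cells in any group, and nothing in the labels tells if the replicates were separate cultures, so that a p-value covers only the spread between these libraries.

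The response element itself is short enough to look for in promoters. RefSeq windows on GRCh38.p14, running from 250 bases before to 50 bases after an annotated start, were found for 32 of the 37 genes (49 windows). None was found for NUPR1, PSPH, SHMT2, PYCR1 and GPT2. The element core TGATGNAA, read on either strand, was in 11 of the 49 windows (22.4%, Wilson 95% interval 13.0 to 35.9), against 1270 of 35116 windows of all genes (3.62%). The interval treats the windows as independent, although some genes had more than 1. The genes were listed as members of the ATF4 programme, so a larger share may come from how they were chosen. The stricter form TGATGCAA was in 7 windows (14.3%), against 0.866% of all windows, and every such match is also a match to the first motif. A separate motif, TGACNNNGC, which is not a form of this element, was in 13 windows (26.5%), against 13.3% of all. In the part before the start alone, 6 of 49 windows held TGATGNAA (12.2%), against 3.14% of all. Those 6 belong to ATF3, CEBPG, CHAC1, ASNS, AARS1 and GARS1. With Cinnamon high 11.8% of all genes were called higher against vehicle, and so was each of these 6 genes. The 250 bases before their starts are printed 5′ to 3′ on the coding strand, with the match in capitals. A match shows only that these letters are present.
ATF3 (chr1:212565157-212565406, plus strand): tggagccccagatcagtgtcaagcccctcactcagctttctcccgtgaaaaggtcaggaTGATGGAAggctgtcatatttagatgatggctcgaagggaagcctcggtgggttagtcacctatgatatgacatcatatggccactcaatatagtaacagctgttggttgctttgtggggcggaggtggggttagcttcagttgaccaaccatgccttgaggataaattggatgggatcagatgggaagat
CEBPG (chr19:33373863-33374112, plus strand): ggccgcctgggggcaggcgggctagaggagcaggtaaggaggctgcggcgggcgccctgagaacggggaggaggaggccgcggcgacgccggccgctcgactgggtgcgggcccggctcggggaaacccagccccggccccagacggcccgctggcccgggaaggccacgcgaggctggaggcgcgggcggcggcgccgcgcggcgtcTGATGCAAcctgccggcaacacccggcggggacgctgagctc
CHAC1 (chr15:40953221-40953470, plus strand): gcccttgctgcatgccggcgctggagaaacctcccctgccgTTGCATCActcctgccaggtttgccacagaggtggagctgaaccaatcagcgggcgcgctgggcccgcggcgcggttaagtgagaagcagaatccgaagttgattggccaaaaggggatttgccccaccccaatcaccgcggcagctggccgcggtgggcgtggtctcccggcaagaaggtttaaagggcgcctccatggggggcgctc
ASNS (chr7:97872409-97872658, minus strand): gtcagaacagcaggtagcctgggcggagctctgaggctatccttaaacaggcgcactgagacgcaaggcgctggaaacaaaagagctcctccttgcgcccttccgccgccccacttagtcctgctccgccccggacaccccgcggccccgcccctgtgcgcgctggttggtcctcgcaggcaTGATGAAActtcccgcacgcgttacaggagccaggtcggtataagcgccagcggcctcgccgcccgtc
AARS1 (chr16:70289507-70289756, minus strand): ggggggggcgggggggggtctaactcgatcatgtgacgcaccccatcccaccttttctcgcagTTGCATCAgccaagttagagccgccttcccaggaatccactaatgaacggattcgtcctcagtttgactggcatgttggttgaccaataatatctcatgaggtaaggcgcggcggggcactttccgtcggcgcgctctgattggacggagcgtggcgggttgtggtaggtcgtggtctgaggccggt
GARS1 (chr7:30594628-30594877, plus strand): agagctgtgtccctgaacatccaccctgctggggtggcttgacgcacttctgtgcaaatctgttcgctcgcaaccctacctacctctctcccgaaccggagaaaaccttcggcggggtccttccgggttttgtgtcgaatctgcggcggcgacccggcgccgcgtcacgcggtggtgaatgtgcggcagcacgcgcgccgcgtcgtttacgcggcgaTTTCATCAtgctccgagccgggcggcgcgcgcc
The matches begin 191 bases before the start in ATF3, 42 in CEBPG, 209 in CHAC1, 68 in ASNS, 187 in AARS1 and 33 in GARS1. In CHAC1, AARS1 and GARS1 the element reads TGATGNAA on the opposite strand, and so appears as TTGCATCA or TTTCATCA. For SLC3A2 and NARS1 the match lay after the start, and for SLC1A4, MARS1 and CARS1 it ran across it.

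Total expected counts ran from 20604792 to 29609799 per library, and 22705 to 23990 genes had a count. Values below are CPM, counts scaled to the size of each library and to its TMM factor (0.934 to 1.032). A gene was called when its Benjamini-Hochberg adjusted p over all 17516 genes was under 0.05 in edgeR's quasi-likelihood test. Log2 fold changes are given ± the standard error of the fit, whose spread was pooled over 54 libraries in 19 groups. The sample titles place vehicle and every extract alike in batch B. The first part of the sample code, here called the set, is B1 for vehicle and differs from that for every extract. The labels do not say what it stands for. In a comparison with vehicle the set and the treatment therefore cannot be told apart. High against low dose of 1 extract, and Cinnamon against Astragalus, lie within a set.

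A single library stood apart. Replicate 1 of Sagunja low had median scaled squared differences of 15.7 and 15.9 from its replicates, where no other pair of replicates exceeded 2.41. Of the 37 genes, 9 had their highest level of all 60 libraries in it, and the share of all genes that did so was not counted. It differed from the mean of its 2 replicates by more than 1.5-fold upward in 7 of the genes and downward in 2, where 18.3% and 19.5% of all genes did so. Since it also widened the pooled spread, counts are given with it and without it.

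The genes rose mainly with Cinnamon high. Of the 37 genes, 20 were called higher and 3 lower against vehicle, where 11.8% of all genes tested were called higher and 10.9% lower (22.8% in either direction). Their median log2 fold change was 0.24, with 0.00 over all genes. Against Cinnamon low 23 were higher and 1 was lower, where 10.3% and 11.2% of all genes were (median 0.22), and against Astragalus high 26 were higher and 1 was lower, where 13.6% and 14.1% were (median 0.34). These 3 comparisons share the Cinnamon high libraries, and in RNA from whole cultures fewer cells of a kind and less RNA per cell cannot be told apart. Without replicate 1 of Sagunja low the counts were 21 higher and 4 lower against vehicle (17.5% and 18.2% of all genes), 28 and 3 against Cinnamon low (18.2% and 17.5%), and 28 and 1 against Astragalus high (20.9% and 20.2%).

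**Figure D1:**
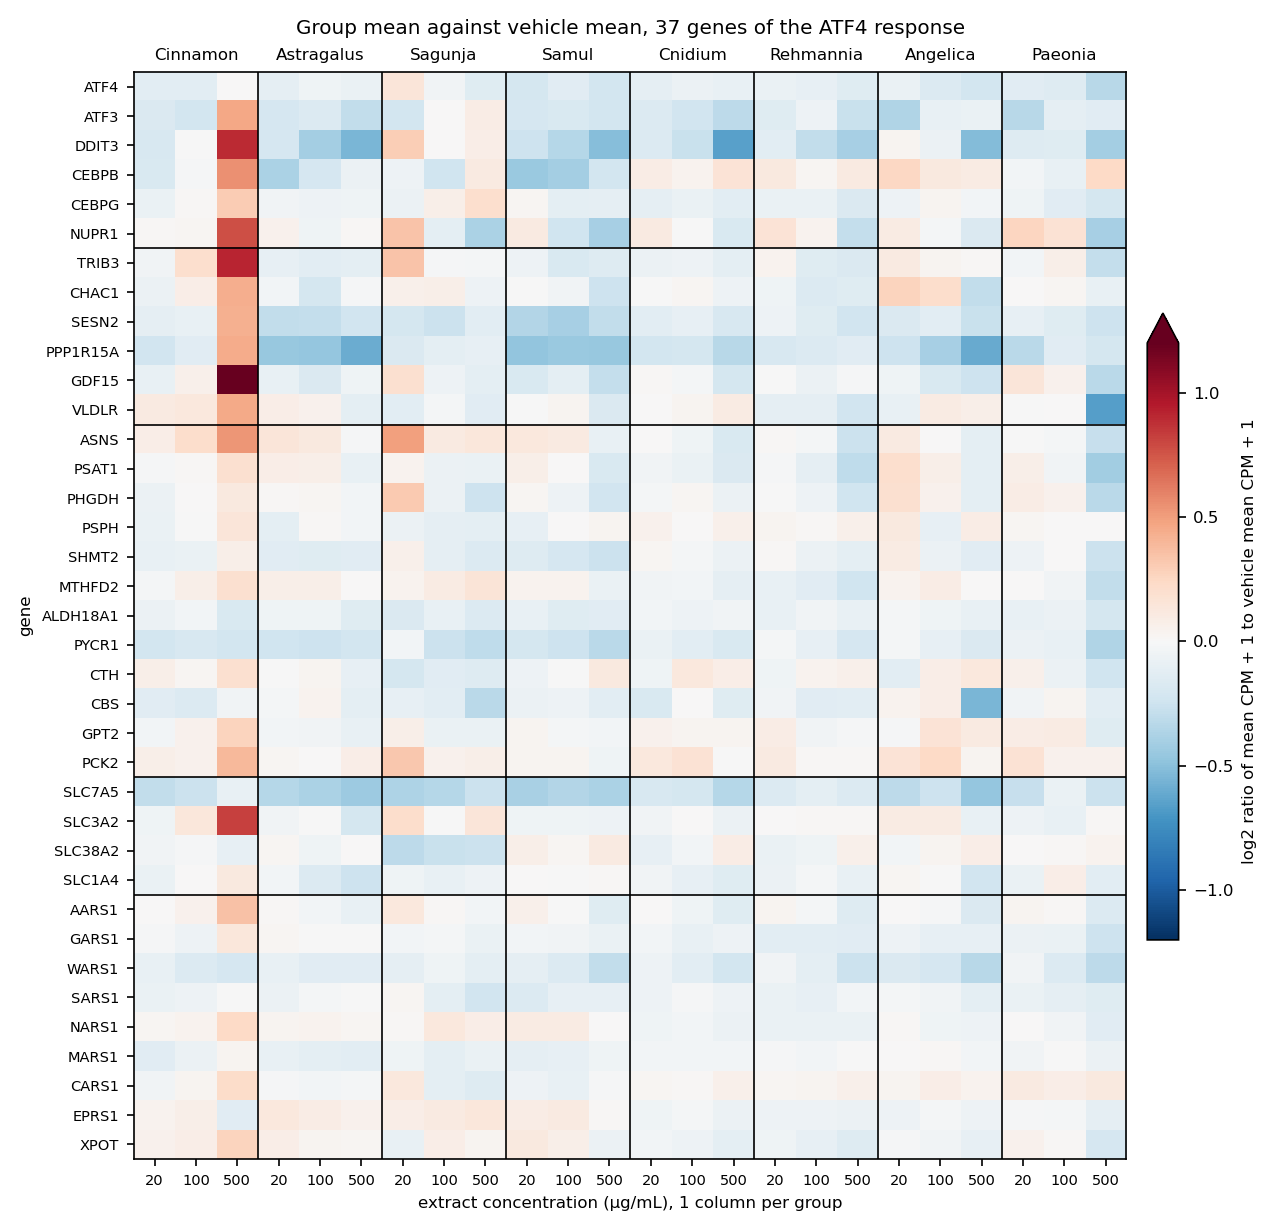
Heat map of the 37 genes (rows, black lines between the roles) in the 24 extract and dose groups (columns). Colour is the log2 ratio of the group mean CPM + 1 to the vehicle mean CPM + 1. The Cinnamon high column is the one with the strongest red, with GDF15 at the top of its range, and most other columns are near 0 or pale blue.

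The gain with Cinnamon high was uneven over the roles. All 6 effectors and 5 of the 6 factors were called higher and none lower, with medians of 0.50 and 0.59. Among the synthesis enzymes 3 of 12 were higher and 2 lower (median 0.19), among the transporters 1 of 4 was higher (median 0.03), and among the synthetases and XPOT 5 of 9 were higher and 1 was lower (median 0.15). In 26 genes every Cinnamon high library lay above every vehicle library and in 4 below, where 22.6% and 24.1% of all genes did so. For 14 genes the 3 Cinnamon high libraries lay above all 57 other libraries of the study, and for EPRS1 below them, where 3.29% and 3.01% of all genes did so. Per library, the median log2 ratio of the 37 genes to the vehicle mean was 0.19 to 0.26 in Cinnamon high, and between -0.22 and 0.04 in the other 57 libraries. In 7 refits, each without 1 library of the 2 groups compared or without replicate 1 of Sagunja low, 14 of the 23 genes always kept their call against vehicle. Those that lost it at least once were CEBPB, CEBPG, CHAC1, ALDH18A1, PYCR1, PCK2, GARS1, CARS1 and XPOT.

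**Figure D2:**
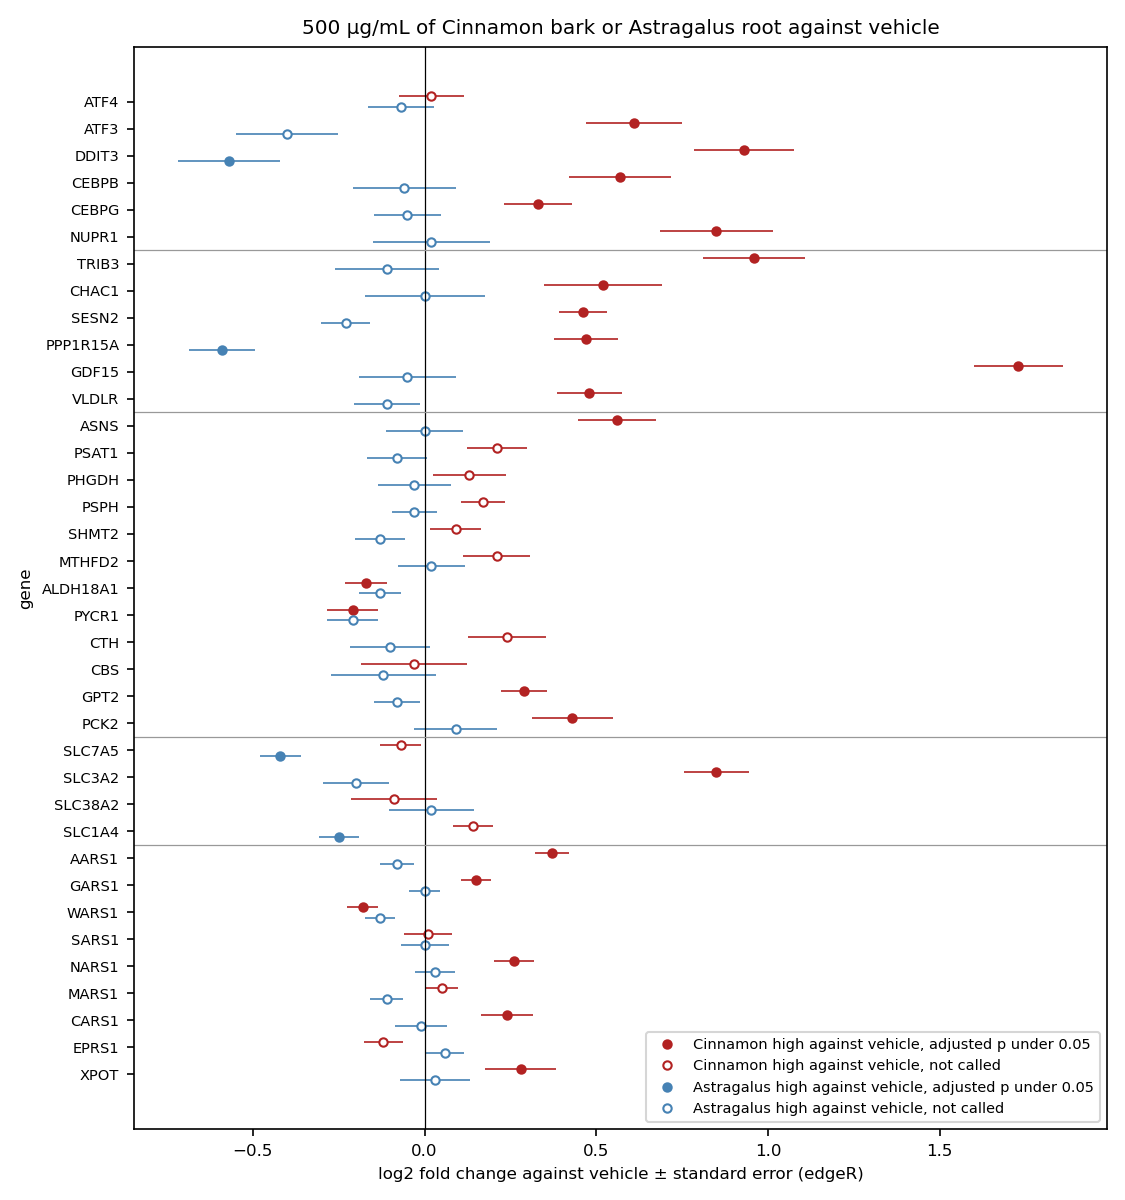
Log2 fold change against vehicle (horizontal axis, bars are the standard error of the fit) for the 37 genes (vertical axis, grouped by role), for Cinnamon high in red and Astragalus high in blue. Filled points have an adjusted p under 0.05. Cinnamon high reaches 1.73 for GDF15, while Astragalus high has its called values below 0, down to -0.59 for PPP1R15A.

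ATF4 mRNA itself was not called with Cinnamon high. ATF4 (ENSG00000128272, chromosome 22, 39519695 to 39522685, plus strand) had 124, 139 and 137 CPM in Cinnamon high libraries, against 136, 135 and 129 CPM in vehicle libraries, and the groups overlap. The difference was 0.02 ± 0.096 (adjusted p = 0.929), and against Cinnamon low it was 0.13 ± 0.0961 (adjusted p = 0.354). Cinnamon low had 123, 125 and 118 CPM and Cinnamon medium 119, 126 and 122 CPM. These 6 libraries lie below the vehicle libraries, by a margin that the test did not call. Of all genes, 12.9% at the low and 14.1% at the medium dose lay below vehicle in every library. Sagunja libraries held 199, 124 and 120 CPM at the low dose, 149, 121 and 118 CPM at the medium dose and 119, 124 and 119 CPM at the high dose. Replicate 1 of Sagunja low is the highest of all 60 libraries, and Sagunja high was called lower than Sagunja low (-0.29 ± 0.0963, adjusted p = 0.0308) in the fit that includes it and was not called without it. In Astragalus libraries ATF4 was at 120, 126 and 126 CPM (low), 130, 132 and 123 CPM (medium) and 121, 130 and 127 CPM (high). Samul libraries had 113 and 117 CPM, 122 and 120 CPM and 110 and 118 CPM at the rising doses. Samul high averaged 114 CPM, the lowest mean of the replicated groups, and its difference from vehicle was not called (-0.21 ± 0.108, adjusted p = 0.335). With replicate 1 of Sagunja low left out, the same comparison and that of Samul low were called lower, each at -0.22. Cnidium had 118, 127 and 126 CPM at the low dose, 120, 131 and 129 CPM at the medium dose and 115, 131 and 131 CPM at the high dose, and Rehmannia 128, 127 and 123, 124, 124 and 125 and 117, 120 and 124 CPM. The single Angelica libraries read 126, 119 and 114 CPM from low to high, and the Paeonia ones 121, 120 and 106 CPM. Apart from 4 Cnidium libraries at 129 to 131 CPM, these all lie below the vehicle libraries.

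DDIT3 (ENSG00000175197, chromosome 12, 57516588 to 57521737, minus strand), which encodes the stress factor CHOP, rose 1.90-fold with Cinnamon high. It had 71.3, 61.5 and 58.7 CPM in Cinnamon high libraries, against 32.7, 34.4 and 34.8 CPM in vehicle libraries, with no overlap. That is 63.8 ± 6.65 CPM against 34.0 ± 1.14 CPM (SD, n = 3 each), a log2 fold change of 0.93 ± 0.145 (adjusted p = 3.98e-06). Against Cinnamon low the change was 1.11 ± 0.145 (adjusted p = 1.28e-07). Cinnamon low libraries had 29.1, 30.7 and 29.2 CPM and Cinnamon medium libraries 32.9, 32.8 and 35.7 CPM, so the medium dose lay within the vehicle range or just above it. The gene overlaps MARS1 on the opposite strand and a further annotated gene on its own strand, and it is not stated whether counting used strand.

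In most other extracts DDIT3 was lower at the higher doses. Astragalus libraries had 28.7, 29.4 and 30 CPM at the low dose, 26.2, 24.6 and 25.4 CPM at the medium dose and 21, 23.2 and 24.3 CPM at the high dose. Cnidium gave 29.6, 33.1 and 28.1 CPM, 29.5, 27.9 and 26.7 CPM and 21.5, 21.9 and 20.4 CPM in the same order of doses. Against vehicle both high doses were called lower, Astragalus by -0.57 ± 0.148 (adjusted p = 0.0174) and Cnidium by -0.67 ± 0.149 (adjusted p = 0.0114). Each call was kept in only 3 of 7 refits with 1 library left out. Samul had 27.7 and 29.1 CPM at the low dose, 25.5 and 27.6 CPM at the medium dose and 23.1 and 23.9 CPM at the high dose. Rehmannia had 33.1, 31.6 and 28.7, 28.3, 27.1 and 27.3 and 23.8, 26.3 and 26.3 CPM at those doses. In each of these 4 extracts every high library lay below every low library. For Astragalus, Cnidium, Samul and Rehmannia, 7.39%, 9.46%, 19.3% and 11.8% of all genes did so. The differences, high against low, were -0.37 ± 0.149 for Astragalus, -0.51 ± 0.15 for Cnidium, -0.27 ± 0.182 for Samul and -0.29 ± 0.148 for Rehmannia, and none was called (adjusted p = 0.577, 0.24, 0.97 and 0.627). Without replicate 1 of Sagunja low, those of Astragalus (-0.36), Cnidium (-0.51) and Rehmannia (-0.29) were called lower, and DDIT3 was called lower in 10 of the 18 comparisons with vehicle instead of 2. Angelica read 34.7, 32.3 and 23.4 CPM from the low to the high dose, and Paeonia 30.4, 30.6 and 25.4 CPM. Sagunja did not follow this order. Its libraries had 66.5, 30.4 and 29.2 CPM at the low dose, 31.5, 37.6 and 32.8 CPM at the medium dose and 33.2, 40.6 and 34.3 CPM at the high dose, and at the high dose it was above Samul (36.0 ± 3.98 CPM, n = 3, against 23.5 ± 0.526 CPM, n = 2, 0.62 ± 0.167, adjusted p = 0.0119).

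NUPR1 (ENSG00000176046, chromosome 16, 28532708 to 28539174, minus strand), a small stress-induced chromatin protein, rose with Cinnamon high. Its libraries had 17, 17.5 and 20 CPM in Cinnamon high, against 9.68, 10.8 and 10.1 CPM in vehicle, and do not overlap (0.85 ± 0.165, adjusted p = 0.000143). Cinnamon low had 10.9, 10.7 and 9.27 CPM and Cinnamon medium 8.82, 11 and 11.2 CPM, both around the vehicle level. Replicate 1 of Sagunja low, at 21.2 CPM, was the one library above them all, with 21.2, 9.58 and 8.76 CPM in that group, 10.4, 9.39 and 8.2 CPM in Sagunja medium and 6.42, 9.03 and 7.43 CPM in Sagunja high. Sagunja high was called lower than Sagunja low (-0.77 ± 0.174, adjusted p = 0.00216) with that library and was not called without it, when instead the differences of Sagunja high (-0.42) and Samul high (-0.44) from vehicle were called. In Samul, NUPR1 was at 10.3 and 11.8 CPM (low), 8.58 and 8.44 CPM (medium) and 7.42 and 7.54 CPM (high). In Rehmannia it was at 13.2, 10.7 and 10.8 CPM, 9.64, 11.4 and 10.6 CPM and 7.81, 9.24 and 7.55 CPM. Every high library of both lay below every low library of the same extract, where 19.3% (Samul) and 11.8% (Rehmannia) of all genes did so. High against low was called in neither with all libraries, and in both once replicate 1 of Sagunja low was left out (-0.55 in Samul and -0.48 in Rehmannia). Astragalus held 9.99, 10.4 and 11.3 CPM at the low dose, 8.89, 10.6 and 9.91 CPM at the medium dose and 9.93, 10.5 and 10.4 CPM at the high dose. Cnidium held 10.1, 12.1 and 11.1, 9.6, 10.3 and 10.6 and 8.17, 9.55 and 8.95 CPM. Angelica read 11, 10 and 8.9 CPM and Paeonia 12.4, 11.6 and 7.51 CPM, with the high dose lowest in both.

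The other factors moved less. ATF3, an ATF4 target that also binds DNA beside it, averaged 4.45 ± 0.206 CPM in Cinnamon high libraries, against 2.95 ± 0.291 CPM in vehicle libraries (0.61 ± 0.139, adjusted p = 0.001), and it is the least abundant of the 6 per length (0.73 CPM per kb of exon in vehicle, against 52.9 for ATF4). CEBPB, a C/EBP partner, averaged 94.2 ± 17.6 CPM against 64.3 ± 6.76 CPM in vehicle (0.57 ± 0.149, adjusted p = 0.00424). CEBPG, the C/EBP protein that pairs with ATF4 at amino acid response genes, averaged 58.4 ± 1.22 CPM against 47.0 ± 1.52 CPM in vehicle (0.33 ± 0.0981, adjusted p = 0.0119). For all 3 genes the Cinnamon high libraries lay above every other library of the study. The change in CEBPG lost its call when a library was left out, at log2 fold changes of 0.31 to 0.35, and so did that in CEBPB, at 0.41 to 0.67.

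**Figure D3:**
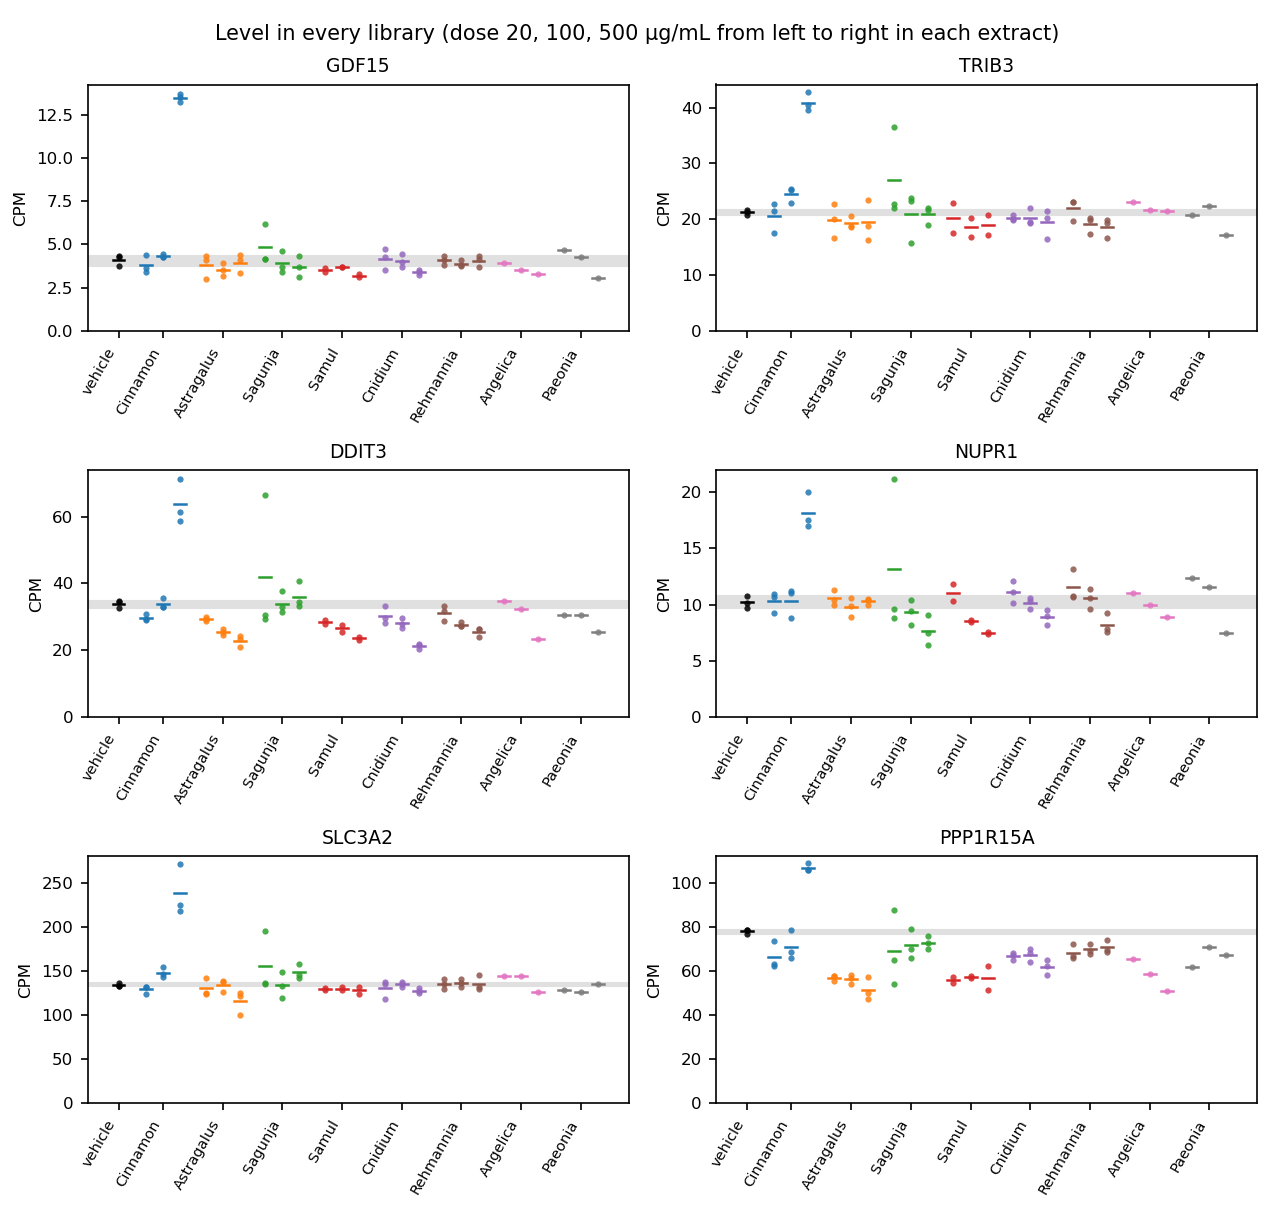
CPM per library (vertical axis) for GDF15, TRIB3, DDIT3, NUPR1, SLC3A2 and PPP1R15A in each extract (horizontal axis), with the doses 20, 100 and 500 µg/mL left to right within an extract. Points are libraries, dashes are means, and the grey band is the range of the 3 vehicle libraries. The Cinnamon high points stand clear of the band in every panel, and the lone high Sagunja point at the low dose is replicate 1.

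GDF15 (ENSG00000130513, chromosome 19, 18374731 to 18389176, plus strand), a secreted stress cytokine, had the largest change of the 37 genes. It had 13.5, 13.7 and 13.2 CPM in Cinnamon high libraries, against 4.3, 3.72 and 4.29 CPM in vehicle libraries. That is 3.31-fold higher, a log2 fold change of 1.73 ± 0.129 (adjusted p = 5.68e-14), and 1.83 ± 0.13 against Cinnamon low (adjusted p = 1.46e-14). At the lower doses there was no such rise, with 3.61, 3.41 and 4.39 CPM in Cinnamon low and 4.24, 4.44 and 4.24 CPM in Cinnamon medium. All other libraries of the study lay between 2.99 and 6.19 CPM. Sagunja had 6.19, 4.16 and 4.16 CPM at the low dose, 4.59, 3.41 and 3.7 CPM at the medium dose and 3.09, 4.3 and 3.68 CPM at the high dose. Astragalus had 2.99, 4.35 and 4.1 CPM, 3.9, 3.16 and 3.49 CPM and 3.34, 4.38 and 4.08 CPM, and Samul 3.63 and 3.39 CPM, 3.68 and 3.71 CPM and 3.09 and 3.26 CPM. None of these groups was called against vehicle. For Cnidium the values were 4.7, 3.5 and 4.27 CPM at the low dose, 3.66, 4.45 and 3.96 CPM at the medium dose and 3.42, 3.53 and 3.24 CPM at the high dose, and for Rehmannia 4.35, 4.09 and 3.78, 3.72, 4.08 and 3.78 and 4.31, 4.15 and 3.68 CPM. Angelica read 3.94, 3.49 and 3.31 CPM from low to high, and Paeonia 4.66, 4.29 and 3.08 CPM.

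TRIB3 (ENSG00000101255, chromosome 20, 362835 to 397559, plus strand), a pseudokinase that DDIT3 and ATF4 induce and that dampens ATF4 in turn, rose 1.95-fold. It was at 40.4, 39.5 and 42.8 CPM in Cinnamon high libraries, against 21.6, 20.8 and 21.3 CPM in vehicle libraries (0.96 ± 0.148, adjusted p = 2.87e-06). Against Cinnamon low the change was 1.00 ± 0.148 (adjusted p = 1.58e-06), with 17.6, 21.4 and 22.7 CPM there and 22.9, 25.5 and 25.3 CPM in Cinnamon medium. The medium dose lay above all 3 vehicle libraries without being called, where 11.8% of all genes did so. Sagunja had 36.6, 22.7 and 22 CPM at the low dose, 15.8, 23.8 and 23.3 CPM at the medium dose and 18.9, 21.6 and 22.1 CPM at the high dose, and the first of these values is the one library that came near Cinnamon high. Astragalus libraries had 16.6, 20 and 22.8 CPM (low), 18.8, 18.6 and 20.5 CPM (medium) and 16.3, 18.8 and 23.4 CPM (high). Samul libraries had 17.6 and 22.9 CPM, 16.8 and 20.3 CPM and 17.1 and 20.8 CPM. Replicates here spread as widely as the doses. Cnidium had 20.1, 20.7 and 19.9, 19.3, 22.1 and 19.5 and 16.5, 21.5 and 20.3 CPM from the low to the high dose. Rehmannia had 19.6, 23.1 and 23.1, 17.3, 19.9 and 20.2 and 16.7, 19.4 and 19.9 CPM. The single libraries ran 23, 21.7 and 21.5 CPM in Angelica and 20.8, 22.3 and 17.2 CPM in Paeonia. No comparison called TRIB3 apart from those of Cinnamon high.

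PPP1R15A (ENSG00000087074, chromosome 19, 48872392 to 48876057, plus strand), the GADD34 gene, was called higher with Cinnamon high, and lower with Astragalus and Samul at every dose. Cinnamon high libraries had 106, 109 and 106 CPM, against 78.7, 76.7 and 78.8 CPM in vehicle libraries (0.47 ± 0.0939, adjusted p = 0.000181). Cinnamon low had 73.8, 63.1 and 62.3 CPM and Cinnamon medium 78.5, 68.5 and 65.7 CPM, so the rise against Cinnamon low was larger (0.70 ± 0.0943, adjusted p = 2.52e-07). Astragalus had 57.6, 57.5 and 55.5 CPM at the low dose, 58, 56.6 and 53.9 CPM at the medium dose and 57.2, 49.8 and 47.4 CPM at the high dose, each below vehicle by the test (-0.45 ± 0.0948, -0.46 ± 0.0949 and -0.59 ± 0.0951). Samul had 57.4 and 54.6 CPM, 56.7 and 57.7 CPM and 51.2 and 62.4 CPM, also lower at every dose (-0.47 ± 0.107, -0.43 ± 0.107 and -0.45 ± 0.107, n = 2). The Astragalus calls were kept in 7 of 7 refits with 1 library left out. No Samul call was kept in every such refit. The lower level thus stood already at the low dose, and none of the high against low comparisons of these extracts was called. Cnidium had 67.4, 65 and 68.2 CPM at the low dose, 63.9, 68.2 and 70.2 CPM at the medium dose and 58.3, 65 and 62.4 CPM at the high dose. Rehmannia had 67, 65.8 and 72.3, 67.9, 69.2 and 72.2 and 69.5, 68.5 and 74.3 CPM. All these libraries lie under the vehicle range, without a call in the fit of all libraries. At the rising doses 13.2%, 13.6% and 17.2% of all genes lay so in Cnidium, and 15%, 16.2% and 18.1% in Rehmannia. When replicate 1 of Sagunja low was left out, Cnidium high (-0.33), Cinnamon low (-0.23) and Sagunja low (-0.39) were called lower too, which made 9 of the 18 comparisons with vehicle instead of 6. Sagunja held 87.8, 65.1 and 54.2 CPM (low), 79, 66.1 and 69.9 CPM (medium) and 69.9, 72.7 and 76 CPM (high). Angelica read 65.5, 58.8 and 51 CPM, and Paeonia 62, 71 and 67.1 CPM.

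Of the other effectors, SESN2, a sestrin that senses leucine and restrains mTORC1, averaged 31.0 ± 0.797 CPM in Cinnamon high libraries, against 22.7 ± 0.707 CPM in vehicle libraries (0.46 ± 0.0699, adjusted p = 2.17e-06). It was called lower in 7 of the other comparisons with vehicle, namely all doses of Samul (-0.30 to -0.40), Astragalus medium and low (-0.29 and -0.30) and Sagunja medium and low (-0.26 and -0.21). None of these 7 calls was kept in every refit with 1 library left out. Once replicate 1 of Sagunja low was left out, Sagunja low lost its call (-0.16), and Astragalus high and Rehmannia high gained one (-0.24 each). VLDLR, a lipoprotein receptor and ATF4 target, averaged 43.8 ± 1.89 CPM against 31.7 ± 0.606 CPM in vehicle (0.48 ± 0.0955, adjusted p = 0.000162). CHAC1, which degrades glutathione, averaged 7.27 ± 0.56 CPM against 5.13 ± 0.614 CPM in vehicle (0.52 ± 0.171, adjusted p = 0.023), and its call was lost in some refits with 1 library left out.

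The 12 synthesis enzymes did not move alike. ASNS, asparagine synthetase, averaged 82.0 ± 3.03 CPM in Cinnamon high libraries, against 56.3 ± 2.93 CPM in vehicle libraries (0.56 ± 0.113, adjusted p = 0.000229). PCK2, the mitochondrial phosphoenolpyruvate carboxykinase, rose by 0.43 ± 0.118 (adjusted p = 0.0062) and GPT2, the mitochondrial alanine aminotransferase, by 0.29 ± 0.0664 (adjusted p = 0.000857). Of the serine and glycine enzymes none was called against vehicle with all libraries. PHGDH, the first enzyme of serine synthesis, had 39.5 ± 1.07 CPM with Cinnamon high, against 36.4 ± 1.86 CPM with vehicle (0.13). PSAT1 and PSPH, the next steps, had values of 0.21 (adjusted p = 0.084) and 0.17 (adjusted p = 0.0607), and SHMT2 and MTHFD2, of mitochondrial one-carbon metabolism, had 0.09 and 0.21. Within the set some were called higher, namely PSPH against Cinnamon low (0.24, adjusted p = 0.00549), and PSPH (0.19, adjusted p = 0.0219), PSAT1 (0.29, adjusted p = 0.0112) and SHMT2 (0.22, adjusted p = 0.021) against Astragalus high. With replicate 1 of Sagunja low left out, PSPH was also called higher against vehicle (0.15), all 5 were against Cinnamon low (0.16 to 0.24), and all but MTHFD2 were against Astragalus high (0.16 to 0.28). Both genes of proline synthesis were lower: PYCR1 had 75.6 ± 5.13 CPM against 88.4 ± 3.30 CPM in vehicle (-0.21 ± 0.0736, adjusted p = 0.0321), and ALDH18A1 had 112 ± 1.59 CPM against 126 ± 1.27 CPM in vehicle (-0.17 ± 0.0617, adjusted p = 0.0459). Against Cinnamon low and against Astragalus high, which are of the same set, neither proline gene was called with all libraries, and without replicate 1 of Sagunja low ALDH18A1 was called lower than in Cinnamon low (-0.11). PYCR1 also overlaps another coding gene, MYADML2, on its own strand. Of the transsulfuration genes, CTH had 0.24 (adjusted p = 0.143) and CBS -0.03, and CTH was called higher against Astragalus high (0.34, adjusted p = 0.0244). CBS has a near-identical annotated copy, CBSL, to which up to 103 expected counts were given per library against up to 333 for CBS, so its level is uncertain.

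Of the 2 chains of the large neutral amino acid transporter, 1 rose against vehicle with Cinnamon high. SLC3A2 (ENSG00000168003, chromosome 11, 62856102 to 62888875, plus strand), the heavy chain that carries several light chains to the surface, had 271, 225 and 218 CPM in Cinnamon high libraries, against 133, 136 and 133 CPM in vehicle libraries. It rose 1.80-fold (0.85 ± 0.0948, adjusted p = 3.11e-09), and by 0.89 ± 0.0949 against Cinnamon low (adjusted p = 1.13e-09). Cinnamon low had 124, 132 and 132 CPM and Cinnamon medium 146, 143 and 154 CPM. The medium dose lay above all vehicle libraries without a call, where 11.8% of all genes did so. Sagunja libraries had 195, 135 and 136 CPM at the low dose, 119, 149 and 133 CPM at the medium dose and 142, 158 and 145 CPM at the high dose. Astragalus gave 123, 125 and 142 CPM, 138, 126 and 137 CPM and 100, 121 and 125 CPM at those doses. Astragalus high holds the lowest library of the study and was called lower than vehicle, at -0.21, only in the fit without replicate 1 of Sagunja low. Samul gave 128 and 130, 128 and 131 and 124 and 132 CPM from the low to the high dose. Cnidium gave 135, 137 and 118, 137, 135 and 132 and 130, 127 and 125 CPM, and Rehmannia 140, 135 and 129, 131, 140 and 136 and 131, 145 and 129 CPM. The Angelica libraries read 144, 144 and 126 CPM and the Paeonia libraries 128, 126 and 135 CPM.

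SLC7A5, the LAT1 light chain that pairs with SLC3A2 to import leucine, was not called higher against vehicle with Cinnamon high, but was within its set. It had 187 ± 8.60 CPM with Cinnamon high, against 198 ± 3.84 CPM with vehicle (-0.07 ± 0.0605, adjusted p = 0.44). It was called lower in 12 of the 18 comparisons with vehicle, more often than any other of the genes in the fit of all libraries. In the fit without replicate 1 of Sagunja low it was again called in 12, and PYCR1 in 14. Those were all doses of Sagunja (-0.35 at the low, -0.32 at the medium and -0.24 at the high dose), Astragalus (-0.33, -0.37 and -0.42) and Samul (-0.37, -0.34 and -0.37), together with Cinnamon low (-0.28), Cinnamon medium (-0.25) and Cnidium high (-0.34). Vehicle holds the highest mean of all groups, so these comparisons turn on 3 libraries of another set. Within its set, Cinnamon high was above Cinnamon low (187 ± 8.60 CPM against 162 ± 18.7 CPM, 0.21 ± 0.0606, adjusted p = 0.00849) and above Astragalus high (0.35 ± 0.0607, adjusted p = 1.59e-05). With 1 library left out, the first call was kept in 4 of 7 refits and the second in 7 of 7. SLC38A2, the SNAT2 glutamine carrier, had 308 ± 21.2 CPM with Cinnamon high, against 331 ± 9.36 CPM with vehicle, and was called in none of the 27 comparisons with all libraries. Replicate 1 of Sagunja low was far below its replicates in this gene, and without it SLC38A2 was called lower in Sagunja high (-0.25) and Sagunja medium (-0.27) against vehicle and in Sagunja high against Samul high (-0.37). SLC1A4, a carrier of alanine, serine and cysteine, had 0.14 ± 0.0579 with Cinnamon high (adjusted p = 0.0775) and was called lower with Astragalus high (-0.25 ± 0.0584, adjusted p = 0.00622).

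**Figure D4:**
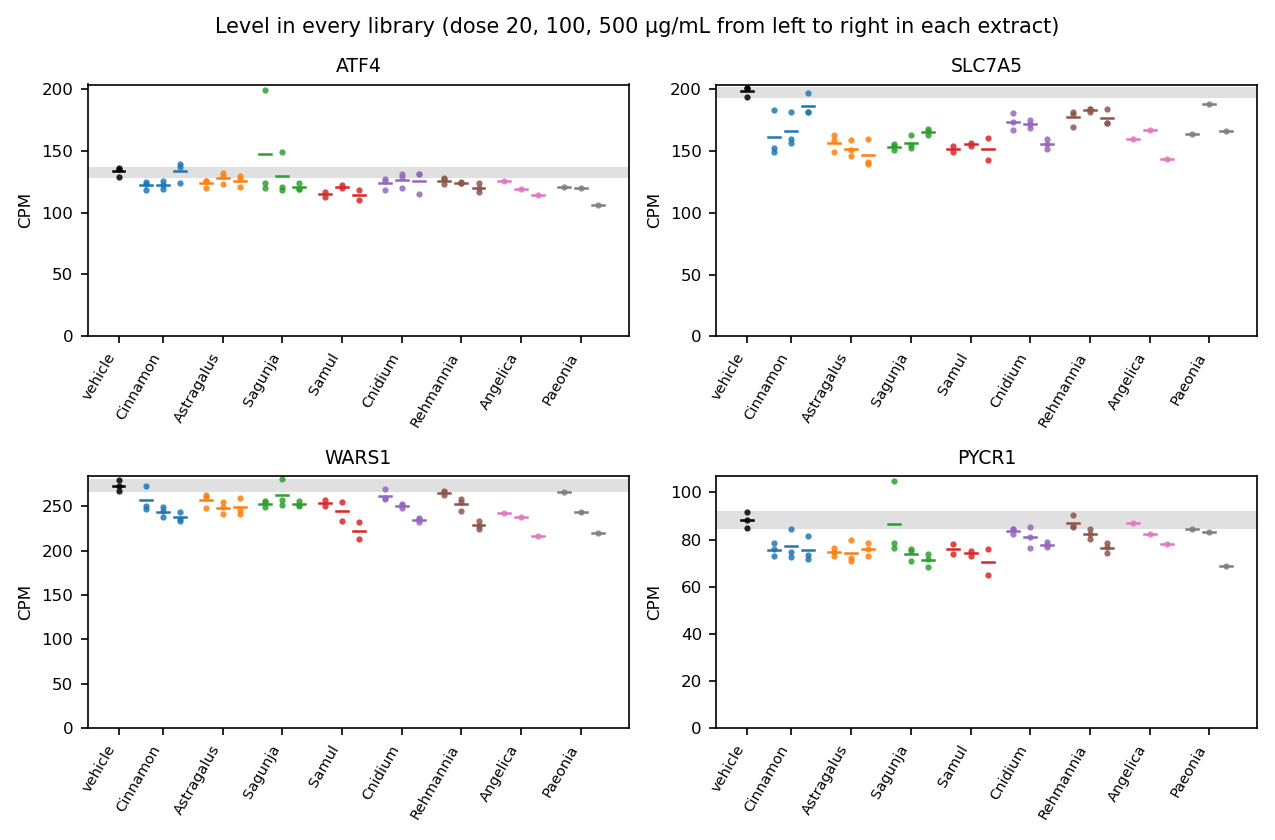
CPM per library (vertical axis) for ATF4, SLC7A5, WARS1 and PYCR1 in each extract (horizontal axis), with the doses 20, 100 and 500 µg/mL left to right. Points are libraries, dashes are means, and the grey band is the range of the 3 vehicle libraries. The Cinnamon high points overlap the band for ATF4 and lie under it for WARS1 and PYCR1, and most SLC7A5 points lie under it.

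The tRNA synthetases charge tRNAs with amino acids, and 5 of this group rose with Cinnamon high. AARS1, for alanine, had 235 ± 3.11 CPM, against 184 ± 3.44 CPM in vehicle libraries (0.37 ± 0.0499, adjusted p = 2.32e-07). NARS1, for asparagine, rose by 0.26 ± 0.0576, CARS1, for cysteine, by 0.24 ± 0.076 and GARS1, for glycine, by 0.15 ± 0.0441, and the tRNA exporter XPOT by 0.28 ± 0.103 (adjusted p = 0.0439). SARS1, for serine, MARS1, for methionine, and EPRS1, for glutamate and proline, had values of 0.01, 0.05 and -0.12 and were not called against vehicle with all libraries, while EPRS1 was called lower (-0.13) without replicate 1 of Sagunja low. MARS1 was higher than in Cinnamon low (0.18, adjusted p = 0.00554) and in Astragalus high (0.17, adjusted p = 0.00763). EPRS1 was lower than in Cinnamon low (-0.17 ± 0.0555, adjusted p = 0.0226) and in Astragalus high (-0.18 ± 0.0556, adjusted p = 0.0135). WARS1, for tryptophan, which interferon-gamma is also known to induce, fell: it had 238 ± 5.42 CPM in Cinnamon high libraries, against 273 ± 5.99 CPM in vehicle libraries (-0.18 ± 0.045, adjusted p = 0.00226), and against Cinnamon low it was called only without replicate 1 of Sagunja low (-0.10). WARS1 was also lower than vehicle with Rehmannia high (-0.25 ± 0.045, adjusted p = 0.000621), Cnidium high (-0.21 ± 0.045, adjusted p = 0.00797) and Samul high (-0.28 ± 0.0506, adjusted p = 0.000299). The fit without replicate 1 of Sagunja low called it lower in 9 of the 18 comparisons with vehicle instead of 4.

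Genes with and without the promoter match were both among those that rose. With Cinnamon high against vehicle 11.8% of all genes were called higher and 10.9% lower. The share among all genes with a match was not counted. Of the 11 genes with TGATGNAA in a window, 9 were called higher with Cinnamon high and none lower, with a median of 0.33. Of the 21 with windows but no match, 9 were higher and 2 lower, with a median of 0.21, and GDF15, with the largest change, is among them. Of the 5 without a window, 2 were higher and 1 was lower. Some calls of higher were lost when 1 library was left out. These were CEBPG, CHAC1, GARS1 and CARS1 with a match, and CEBPB, PCK2 and XPOT with windows but no match.

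Related gene lists were counted in the same fit. Like the 37 genes, they were chosen with earlier results of these data known, which may raise their counts. With Cinnamon high against vehicle 11.8% of all genes were called higher and 10.9% lower. Of 17 further ATF4 targets tested, 8 were called higher with Cinnamon high and none lower (median 0.24), led by SLC7A11, the cystine carrier that NRF2 also controls (227 ± 18.9 CPM against 99.2 ± 1.84 CPM in vehicle, 1.21 ± 0.122), DDIT4, an mTORC1 inhibitor (0.60), and ADM2, a peptide hormone (0.53). FGF21 was too low to be tested. ER chaperones, which the other branches of the unfolded protein response drive, showed 0 of 13 higher and 1 lower, HSP90B1 at -0.27. Among 16 sensors and regulators of the response 1 was higher, OMA1 (0.44), and 1 lower, DELE1 (-0.19), which are the mitochondrial protease and the relay of the mitochondrial signal. Other cytosolic synthetases had 3 of 12 higher and none lower, and mitochondrial synthetases 5 of 17 higher and none lower, led by NARS2 (0.36). All 10 NRF2 targets, genes of the oxidant response, were higher (median 1.00), with HMOX1 at 1400 CPM against 79.7 CPM in vehicle (4.15). At Cinnamon medium 5 of the NRF2 targets were higher, HMOX1 by 1.18, where of the 37 genes 0 were higher and 1 was lower, SLC7A5 (1.12% and 1.16% of all genes), and likewise at Cinnamon low (0.674% and 0.383%). Without replicate 1 of Sagunja low, Cinnamon medium had 1 of the 37 higher, ASNS (0.21), and 3 lower (2.93% and 4.44% of all genes), Cinnamon low had 0 higher and 3 lower (2.3% and 3.12%), and the NRF2 targets again had 5 higher at the medium dose. Of 10 p53 targets, 3 were higher, with CDKN1A at 0.93, and of 11 interferon-gamma targets 2 were higher and 1 lower. Without replicate 1 of Sagunja low the further ATF4 targets had 10 higher and 1 lower at Cinnamon high (17.5% and 18.2% of all genes). In that fit the chaperones had 2 and 4, the sensors 3 and 4, and the NRF2 targets still 10 and 0.

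The labelled cell type was checked against marker genes. GFAP, S100B, AQP4 and ALDH1L1, markers of a differentiated astrocyte, were at or near 0 in every library, at no more than 0.321 CPM. VIM, at 4660 to 6030 CPM, and SOX9 were present. The rest of the 9 astrocyte markers are given only within their sum. The 6 fibroblast and smooth muscle markers summed to 4600 to 5370 CPM in Cinnamon high libraries, against 6930 to 6970 CPM in vehicle libraries, and 5 of them were called lower. The 9 astrocyte markers, most of whose level is VIM, summed to 5570 to 5910 CPM against 6070 to 6290 CPM in vehicle. The 10 markers of other cells summed to 229 to 259 CPM against 190 to 203 CPM in vehicle. Their part in the results was not tested.

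In Astragalus, Samul, Cnidium and Rehmannia the 37 genes had few calls against vehicle, and those were all lower. Where any was lower, the share of the 37 was above that of all genes, a difference that was not tested. With Astragalus, from the low to the high dose, 0 were higher at any dose (1.64%, 1.79% and 2.39% of all genes) and 3, 3 and 4 were lower (2.03%, 2.15% and 2.07%). With Samul 0 were higher (1.4%, 0.908% and 2.28%) and 3, 3 and 5 lower (1.22%, 0.839% and 1.85%), PYCR1 being lower at the high dose (-0.32 ± 0.0828, adjusted p = 0.0184). At Cnidium high 0 were higher (0.851%) and 3 lower (0.502%), and at Rehmannia high 0 were higher (1.37%) and 1 lower (0.999%). At Rehmannia high against low, AARS1 (-0.20) and WARS1 (-0.22) were lower and none was higher, where 0.36% and 0.445% of all genes were. There were 8 lower and 0 higher without replicate 1 of Sagunja low (1.78% and 1.72%). In Rehmannia high and Cnidium high the ER chaperones moved more than these genes, with 6 of 13 lower and none higher in each, among them HSPA5 (-0.41 and -0.56). Leaving out replicate 1 of Sagunja low raised the numbers lower to 5, 8 and 9 with Astragalus (8.83%, 8.56% and 7.22% of all genes), 7, 8 and 12 with Samul (7.94%, 7.15% and 7.43%), 6 with Cnidium high (2.81%) and 11 with Rehmannia high (4.07%), with none higher. In that fit PYCR1 was lower in 14 of the 18 comparisons with vehicle, all between -0.19 and -0.33. Samul calls rested on 2 libraries a dose: without replicate 1 of each group, whose lone library is then assumed to vary like the other groups, 0 were called at each dose. No gene was called in 8 comparisons, namely Rehmannia at the low and medium doses (0.993% and 0.714% of all genes called) and Cnidium at the same doses (0.383% and 0.297%) against vehicle, high against low of Astragalus (0.28%), Cnidium (0.228%) and Samul (0.736%), and Cnidium high against Rehmannia high (0.263%). In these edgeR gave an unadjusted p under 0.05 for at most 1 gene upward and 2 to 5 downward, and DESeq2 called 0 to 2. If replicate 1 of Sagunja low was left out, 0 and 1 genes were called in those Rehmannia doses (3.65% and 2.93% of all genes), 0 and 1 in those of Cnidium (1.79% and 1.36%), 2, 3 and 4 in high against low of Astragalus, Cnidium and Samul (1.16%, 0.948% and 1.94%), and 1 in Cnidium high against Rehmannia high (0.834%).

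The Sagunja counts turned on its 1 unusual library. At the low dose ASNS (0.51), PHGDH (0.33), PCK2 (0.35) and AARS1 (0.14) were called higher (13.6% of all genes were) and SESN2, ALDH18A1 and SLC7A5 lower (8.45%). Without replicate 1 none was higher (4.49%) and 4 were lower (6.9%), PHGDH turned to -0.02, and the lower genes were SLC7A5 (-0.38), PPP1R15A (-0.39), PYCR1 (-0.19) and SARS1 (-0.17). In that replicate ATF4 itself was at 199 CPM against 124 and 120 CPM in the other Sagunja low libraries, DDIT3 at 66.5 CPM against 30.4 and 29.2 CPM, and SLC38A2, in the opposite direction, at 155 CPM against a mean of 322 CPM. Against Sagunja low, Sagunja high had 2 higher and 9 lower with it (7.93% and 12.5%), and 2 higher and 1 lower without it (3.47% and 2.96%). Against vehicle, Sagunja medium had 0 higher (3.51%) and 3 lower (2.81%), or 0 and 5 without that library (8.09% and 9.4%). Sagunja high had 0 higher (8.94%) and 3 lower (8.11%), or 2 and 10 without that library (15.1% and 15.7%). With all libraries the 3 were PYCR1 (-0.30 ± 0.0737), SLC7A5 and SARS1 (-0.21 ± 0.0703), while 9 of 11 interferon-gamma targets were higher there. Against Samul high, Sagunja high had 3 genes higher, DDIT3, PPP1R15A (0.36) and WARS1 (0.19), and 0 lower (4.08% and 4.28%), or 5 higher and 2 lower without that library (8.94% and 8.55%).

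The single libraries of Angelica and Paeonia allow no test. Past 1.5-fold on the log2(CPM + 1) scale from the vehicle mean were PPP1R15A in Angelica high (51.0 CPM against a vehicle mean of 78.1 CPM, -0.60) and VLDLR in Paeonia high (19.6 CPM against 31.7 CPM, -0.66), where 0.223% and 0.582% of all genes were lower by that much. In Angelica high and Paeonia high no gene of the 37 was higher by that much (0.445% and 0.885% of all genes were). At the low and medium doses none of the 37 was past it, where 0.462% and 0.405% of all genes were higher and 0.348% and 0.274% lower with Angelica, and 0.354% and 0.268% higher and 0.2% and 0.234% lower with Paeonia. Paeonia high had the lowest median ratio of the genes of any library, at -0.22.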

How the data were processed

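The deposited values were expected counts per Ensembl gene, which the authors had made with RSEM. The submitters' processing notes name FastQC 0.11.9, Trim Galore 0.6.5, STAR 2.7.3a, RSEM 1.3.3 and the genome build hg38. The annotation release, and whether counting used strand, are not given in the sources used here. Per the labels' protocols, a directional mRNA kit and paired-end sequencing were used. Of the 279 columns in the table, 60 were those of the present samples and the other 219 were not used. Rounding to whole numbers changed only some expected counts, since 90.67% of them had no fraction.

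Symbols were matched for 56558 genes, and positions and exon lengths came from GENCODE release 29. Genes were filtered with edgeR's filterByExpr (17516 kept) and libraries scaled with TMM factors. The 19 groups with at least 2 libraries were fitted together with edgeR 4.0.16 (estimateDisp, glmQLFit with robust = TRUE, glmQLFTest) in R 4.3.3 with limma 3.58.1, with 35 residual degrees of freedom and a common biological coefficient of variation of 0.0946. In all, 27 comparisons were tested, 18 with vehicle, 6 of high with low dose and 3 between extracts of a set. For Angelica and Paeonia, log2(CPM + 1) ratios to the vehicle mean past 1.5-fold were counted, without a test. The fit was tested on simulated data. Alternatives used DESeq2 1.42.0, other scalings, filters and samples, and each library left out. A left-out library was counted only in comparisons of its own group, and replicate 1 of Sagunja low in all comparisons. Promoter shares and figures used Python 3.11.15, pandas 2.3.3, scipy 1.17.1 and matplotlib 3.10.9.

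The 37 genes and the other lists were chosen with earlier results of these data known. All 37 could be named. Values in every library are given for ATF4 and for genes called in any comparison with a log2 fold change of at least 0.8 in size and at least 5 CPM as the higher mean. From other lists, up to 4 called genes with the largest changes could be named. Promoters with a match before the start were printed for genes called higher with Cinnamon high. Replicate numbers were checked for pairing by the correlation of deviations within numbered pairs over the genes, which ran from -0.28 to 0.23 over the 27 comparisons, and in none did all pairs exceed 0.1.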

Additional observations from a re-analysis of the deposited data

Results flagged for a closer look

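DDIT3 and PPP1R15A moved in opposite directions from vehicle with Cinnamon high and Astragalus high, extracts of the same set. The direction of each rests on the vehicle libraries, which are of another set. Astragalus high against low called neither gene with all libraries, and called DDIT3 lower without replicate 1 of Sagunja low. In Astragalus high against vehicle, DDIT3 kept its call in 3 of 7 refits with 1 library left out, and PPP1R15A in 7 of 7. DDIT3 was 0.93 above vehicle with Cinnamon high and 0.57 below it with Astragalus high (a log2 fold change of -0.57), and Cinnamon high against Astragalus high gave 1.49 ± 0.148 (adjusted p = 1.1e-10, 3 of 3 libraries above all 3). PPP1R15A was 0.47 above vehicle with Cinnamon high and at -0.59 with Astragalus high, and the direct comparison gave 1.06 ± 0.0953 (adjusted p = 6.24e-12, 3 of 3 libraries above all 3). Both adjusted p are from edgeR's quasi-likelihood test. Of all genes, 21% had every Cinnamon high library above every Astragalus high library. NRF2 targets moved alongside these genes with Cinnamon high, and their part in the difference was not tested.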

How the results depend on the processing

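The counts for Cinnamon high held under every alternative run: 18 to 25 genes called against vehicle with 1 library left out (23 with all), 18 to 31 against Cinnamon low (24) and 20 to 29 against Astragalus high (27). Of 130 called values of single genes, 128 kept their call with DESeq2 size factors, 119 with library size alone, 113 with genes of at least 10 counts in total (chosen after seeing the data), 98 in a fit of the 2 groups compared and 129 with DESeq2, and 694 of 878 did with 1 library left out. One value turned over, PHGDH in Sagunja low, at -0.02 without replicate 1 and up to 0.48 in its other refits. The planned fit with no filter could not be fitted and was not run. Unless said otherwise, the cause of a change was not tested.

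The small counts moved more. DESeq2 size factors gave 2 for Cinnamon medium and 1 for Rehmannia high against low, library size alone 1 for Rehmannia high against low and 0 for Angelica high and Paeonia high, and the weaker filter 3 for Sagunja low, 6 for Sagunja high against low and 1 for Rehmannia high against low. DESeq2 gave 2 for Cinnamon medium, 6 for Sagunja high, 5 for Astragalus medium, 5 for Rehmannia high, 1 for Rehmannia low, and, high against low, 1 for Astragalus, 1 for Cnidium and 2 for Samul. A pseudocount of 0.1 CPM gave 2 for Angelica high, and 5 CPM gave 0 for Angelica high and Paeonia high. The replicate numbers did not pair the libraries, and a fit with the replicate block kept all 130 called values and gave 3 for Rehmannia high.

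A fit of just the 2 groups compared gave, against vehicle, 2 calls for Cinnamon medium, 18 for Sagunja high, 0 for Sagunja low, 9 and 8 for Astragalus medium and low, 17, 5 and 3 for Rehmannia high, medium and low, 10, 4 and 2 for Cnidium, and 10, 16 and 14 for Samul. High against low gave 0 for Sagunja, 9 for Rehmannia, 6 for Cnidium and 1 for Samul, and the high doses gave 8 for Sagunja against Samul and 4 for Cnidium against Rehmannia. Such a fit leaves out the Sagunja low libraries wherever they are not compared.

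With 1 library left out the ranges against vehicle were 0 to 4 for Cinnamon medium, 0 to 3 for Cinnamon low, 2 to 12 for Sagunja high, 1 to 5 for Sagunja medium, 2 to 15 for Sagunja low, 2 to 9 for Astragalus high, 2 to 8 for medium and 2 to 5 for low, 1 to 11 for Rehmannia high, 0 to 1 for Rehmannia medium and Cnidium medium, 1 to 6 for Cnidium high, and 0 to 12, 0 to 8 and 0 to 7 for Samul high, medium and low. High against low they were 3 to 16 for Sagunja, 0 to 2 for Astragalus, 0 to 8 for Rehmannia, 0 to 3 for Cnidium and 0 to 4 for Samul, and between extracts 0 to 7 for Sagunja against Samul and 0 to 1 for Cnidium against Rehmannia. Replicate 1 of Sagunja low gave the upper end of each, except in Sagunja low (15 without its replicate 2, 14 without its replicate 3, and 2, 3 and 2 without vehicle replicates 1, 2 and 3) and Sagunja high against low (16 without Sagunja low replicate 3, 3 without Sagunja low replicate 1, and 3, 7 and 6 without Sagunja high replicates 1, 2 and 3). Counts fell by more than 1.5 times without vehicle replicate 1 or 3 and Cinnamon medium replicate 2 or 3 (Cinnamon medium, 0), Cinnamon low replicate 2 or 3 (Cinnamon low, 0), vehicle replicate 2 or 3 (Sagunja medium, 1; Samul high, 3), Astragalus high replicate 2 (2), Cnidium high replicate 1 (1), replicate 1 of each Samul dose (0), replicate 2 of Samul medium and low (1 each), Rehmannia high replicate 1 (high against low, 0), any other library of that comparison (1), and Sagunja high replicate 2 (1) or Samul high replicate 1 (0) in Sagunja against Samul. Without Astragalus high replicate 3 its high against low comparison had 1.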
